A study of Homo sapiens with 4 samples.

Results

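HOX genes encode homeodomain transcription factors and stand in 4 clusters, HOXA on chromosome 7, HOXB on chromosome 17, HOXC on chromosome 12 and HOXD on chromosome 2. The members were all probe sets of the array whose annotation gave exactly 1 gene symbol and whose symbol was HOXA, HOXB, HOXC or HOXD followed by a number. This took 44 of 54675 probe sets, for 28 genes: 1 probe set in HOXA, 19 in HOXB, 9 in HOXC and 15 in HOXD. The study used HCT116, a colorectal carcinoma cell line, and profiled its RNA on 4 one-colour Affymetrix arrays. The groups were untransfected cells, cells with a non-targeting hairpin vector (shCTRL), cells with KSR1 hairpin #1 and cells with KSR1 hairpin #2, with 1 array each. KSR1 is a scaffold of the RAF, MEK and ERK kinases, and the study asked what its depletion does to transcripts. The 3 vector-carrying lines were made by lipofection and puromycin selection of clones, per the labels, and the labels do not say whether an array came from 1 clone or a pool. The untransfected cells had neither vector nor selection.

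Within a cluster the HOX genes lie in the order of their paralog numbers, and low numbers are used in anterior and high numbers in posterior parts of the embryo. HOX proteins bind DNA together with the TALE homeodomain proteins PBX and MEIS. Polycomb complexes keep the clusters silent, trithorax complexes keep them active, and retinoic acid switches on the genes of low number first. Adult gut epithelium keeps a pattern of HOX expression along its length, with HOXB13 known from its distal end.

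The deposited values were linear intensities, and differences below are on the scale log2(intensity + 16), which understates those of dim probe sets. The array medians lay between 50.7 and 52.0. With 1 array per group, pairs of arrays were compared by size only and no difference has a replicate check. KSR1 on its brightest probe set had intensities of 209, 211, 141 and 171 for untransfected cells, shCTRL, hairpin #1 and hairpin #2, an order kept for all values below. The hairpin arrays were thus 33.0% and 18.9% under shCTRL. Its other 3 probe sets lay between 27.8 and 60.4. On these hairpin #1 was at -0.02, 0.04 and -0.13 log2 units from shCTRL, and hairpin #2 at 0.02, -0.03 and 0.03. The lower KSR1 values with both hairpins thus rest on 1 probe set. Of 10 colorectal epithelial genes on a fixed list, 8 were above the filter described below, and the epithelial surface protein EPCAM had 7855, 7917, 8119 and 7985. Of 12 fibroblast genes 4, of 4 endothelial genes 1 and of 8 leukocyte genes 0 were above it, and the leukocyte antigen PTPRC lay between 5.39 and 17.4 on its 5 probe sets.

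The clusters differed in how many of their probe sets were bright. A probe set was analysed when its mean log2 value reached 6.08, the median over all probe sets, and below that signal is not told apart from background here. In HOXB 16 of 19 probe sets passed, covering all 10 genes of that cluster. In HOXC 8 of 9 passed, the exception being HOXC12. In HOXD 1 of 15 passed, that of HOXD8, and in HOXA 0 of 1, since HOXA2 had intensities of 11.3, 10.8, 11.95 and 11.95. Of all probe sets with 1 symbol, 55.3% passed. Other HOXA genes were not analysed here, so nothing follows for that cluster. The 19 dim HOX probe sets had intensities between 7.22 and 62.0. The probe sets just outside the filter belonged to HOXD1, with a mean of 6.07, and to HOXB3, with 5.93, and those just inside to HOXB1, with 6.12, and to HOXB6, with 6.18. Probes differ in how well they bind, so neither the count that passed nor the intensities order the genes by transcript number.

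**Figure D1:**
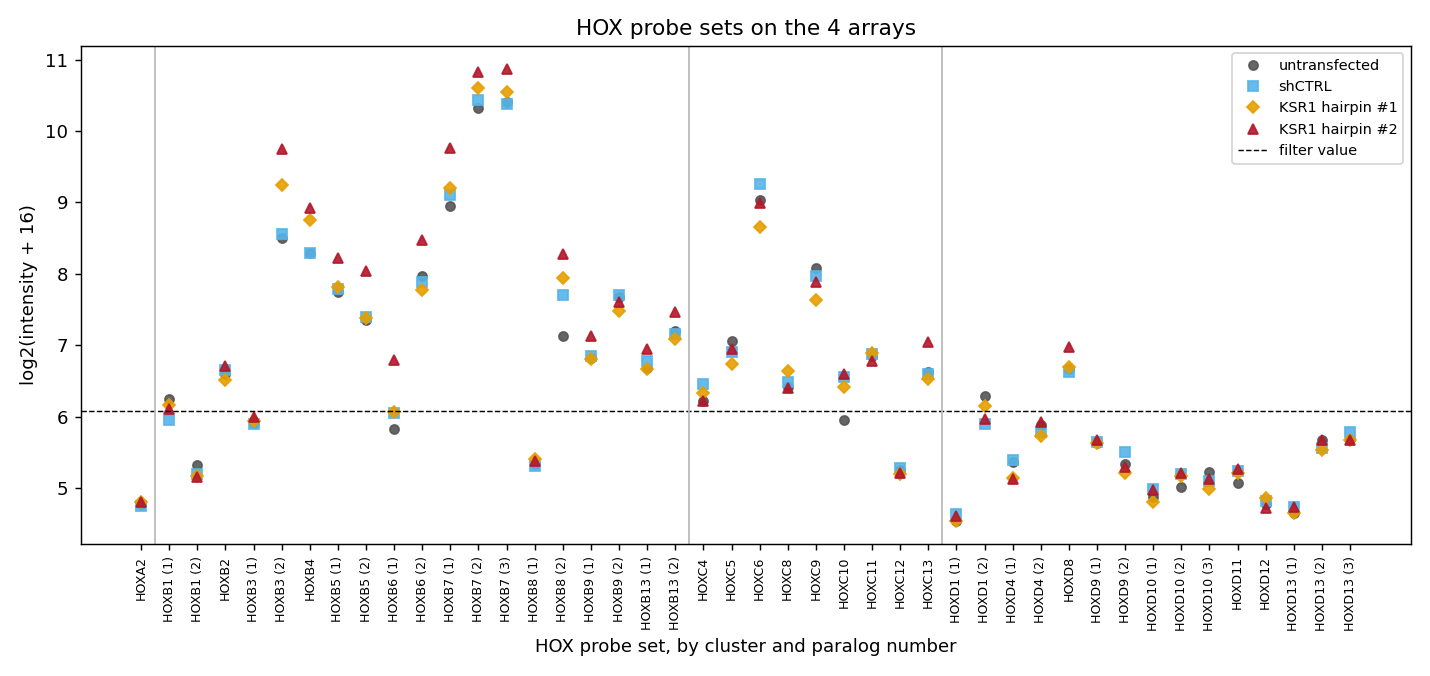
Level of each of the 44 HOX probe sets as log2(intensity + 16) on the vertical axis, with a symbol for each of the 4 arrays and a dashed line at the filter value of 6.08. Probe sets are ordered by cluster and paralog number, and numbers in brackets tell probe sets of a gene apart. Most HOXB and HOXC points lie above the line, and in HOXD those of HOXD8 and, in untransfected and hairpin #1 cells, of the brighter HOXD1 probe set.

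Sequence was at hand for part of the members. A RefSeq table of promoter windows on GRCh38.p14, each running from 250 bases before to 50 after a transcript start, held 11 of the 28 genes, 4 of them with a probe set above the filter. The windows of HOXB1, HOXD8 and the common one of HOXC4 and HOXC5 are shown because they belong to the analysed genes. In the window of HOXB1, on the minus strand at chr17:48530962-48531261, capitals mark the match to TGATNNAT, a motif bound by HOX and PBX proteins together. In the others, on the plus strand at chr12:54016638-54016937 and chr2:176129455-176129754, capitals mark CpG dinucleotides.
HOXB1: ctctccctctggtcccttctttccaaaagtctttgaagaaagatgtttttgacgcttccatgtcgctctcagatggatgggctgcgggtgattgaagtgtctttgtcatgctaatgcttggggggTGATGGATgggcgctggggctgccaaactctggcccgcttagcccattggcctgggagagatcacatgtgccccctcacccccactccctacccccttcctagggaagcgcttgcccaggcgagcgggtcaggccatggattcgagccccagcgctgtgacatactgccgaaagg
HOXC4 and HOXC5: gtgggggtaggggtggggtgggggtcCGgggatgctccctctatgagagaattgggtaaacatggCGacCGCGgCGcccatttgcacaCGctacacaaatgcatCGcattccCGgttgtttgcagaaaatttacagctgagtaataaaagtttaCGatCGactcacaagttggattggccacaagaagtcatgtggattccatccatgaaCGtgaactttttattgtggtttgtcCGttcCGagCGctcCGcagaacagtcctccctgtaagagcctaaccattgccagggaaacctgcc
HOXD8: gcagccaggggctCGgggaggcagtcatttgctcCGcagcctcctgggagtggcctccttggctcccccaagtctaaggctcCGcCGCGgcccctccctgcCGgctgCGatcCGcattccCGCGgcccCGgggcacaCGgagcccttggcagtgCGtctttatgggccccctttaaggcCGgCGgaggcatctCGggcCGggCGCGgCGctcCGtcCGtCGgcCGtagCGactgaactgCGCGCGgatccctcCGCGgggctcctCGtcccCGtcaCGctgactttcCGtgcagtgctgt

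HOXC4 and HOXC5 share a listed start, so their windows were the same in all 300.0 bases. That window had 15 CpG dinucleotides and 51.7% G and C. The window of HOXD8 had 34 and 71.7%, and that of HOXB1 had 11 and 58.0%. Over the 11 genes the CpG number ran from 4 in HOXD4, which was dim, to 36 in HOXD1, which was also dim, with a median of 19, against 14 over all 35116 windows of that table. TGATNNAT, searched on both strands, was in 3 of the 11 windows (HOXA2, HOXB1 and HOXD11) and in 7.40% of all windows, and TATAAA was in 1, that of HOXD13, and in 11.5% of all. These are matches of letters and not shown to be sites.

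HOXB3 differed most between the arrays. HOXB3, a gene of the anterior end of its cluster, had intensities of 345, 362, 587 and 846. Both KSR1 hairpin arrays were above both others, and the control arrays lay next to each other. Hairpin #1 was 1.62-fold and hairpin #2 2.34-fold above shCTRL, or 0.68 and 1.19 log2 units. The mean of the hairpin arrays was 0.96 above the mean of the others (SE 0.19, limma adjusted p = 0.65). Its lower hairpin array was 0.68 above its higher control array. It was the 1 HOX probe set where that gap reached 0.5, as it did for 0.202% of all analysed. A dim HOXB3 probe set had 44.0, 43.3, 45.0 and 47.7, so the difference rests on 1 probe set. In such bulk RNA fewer cells with a transcript and less of it per cell cannot be told apart.

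HOXB4, the next gene of the cluster and known for expanding blood stem cells, followed the same order. Its intensities were 298, 297, 415 and 469. The control arrays nearly coincided, and the hairpin arrays were 1.39-fold and 1.58-fold above shCTRL. The mean difference was 0.54 (SE 0.11, limma adjusted p = 0.65) and the gap between the sides 0.46. HOXB4 had 1 probe set.

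HOXB5 and HOXB6, in the middle of the cluster, were higher with hairpin #2 alone. HOXB5, which acts in vessel and enteric nerve development, had 148, 152, 151 and 247 on its probe set with the wider range. On the other it had 199, 204, 208 and 281. The other 3 arrays lay together on both, and hairpin #2 was 0.65 and 0.43 log2 units above shCTRL. HOXB6 had 236, 221, 202 and 338 on its brighter probe set, where hairpin #2 was 0.58 above and hairpin #1 0.12 below shCTRL. On its dimmer probe set it had 40.9, 50.5, 50.5 and 94.4. That probe set reached the filter only through the hairpin #2 array, so its difference of 0.73 was favoured by the filter.

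HOXB7, a member often studied in epithelial tumours, had 3 probe sets and was highest with hairpin #2 on each. Their intensities were 1338, 1315, 1483 and 1861 on the first, 1259, 1361, 1536 and 1793 on the second and 479, 535, 573 and 851 on the third. Hairpin #1 came next to the highest on all 3. Relative to shCTRL hairpin #2 was higher by 0.39 to 0.65 and hairpin #1 by 0.10 to 0.17.

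HOXB8, known for blocking the maturation of myeloid cells, had 123, 192, 229.7 and 293. Here shCTRL was already 1.56-fold above untransfected cells, so the distance of hairpin #2 was 1.15 log2 units from untransfected cells and 0.57 from shCTRL. Both hairpin arrays were above both others by a gap of 0.24, and the mean difference was 0.69 (SE 0.24, limma adjusted p = 0.66). Without the untransfected array it was 0.41. A dim HOXB8 probe set lay between 23.4 and 26.6 on all arrays.

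The genes at both ends of HOXB lay closer together. HOXB1, a hindbrain gene whose promoter window is printed above, had 59.6, 46.1, 55.5 and 52.7 and was lowest in shCTRL. HOXB2, also of the hindbrain, had 81.2, 84.5, 75.2 and 88.5. HOXB9 had 187, 192, 162 and 179 on its brighter probe set and 96.5, 99.0, 95.5 and 124 on the other. The first was lower with both hairpins and the second higher with hairpin #2, at mean differences of -0.14 (SE 0.10) and 0.13 (SE 0.14), so its direction depended on the probe set. Without hairpin #1 the first was at -0.08. HOXB13, the gene of distal gut and prostate, had 131, 126, 120.0 and 160.1 on its brighter probe set. On the other it had 87.0, 93.7, 86.0 and 107. Hairpin #2 was highest on both, by 0.31 and 0.16 over shCTRL.

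**Figure D2:**
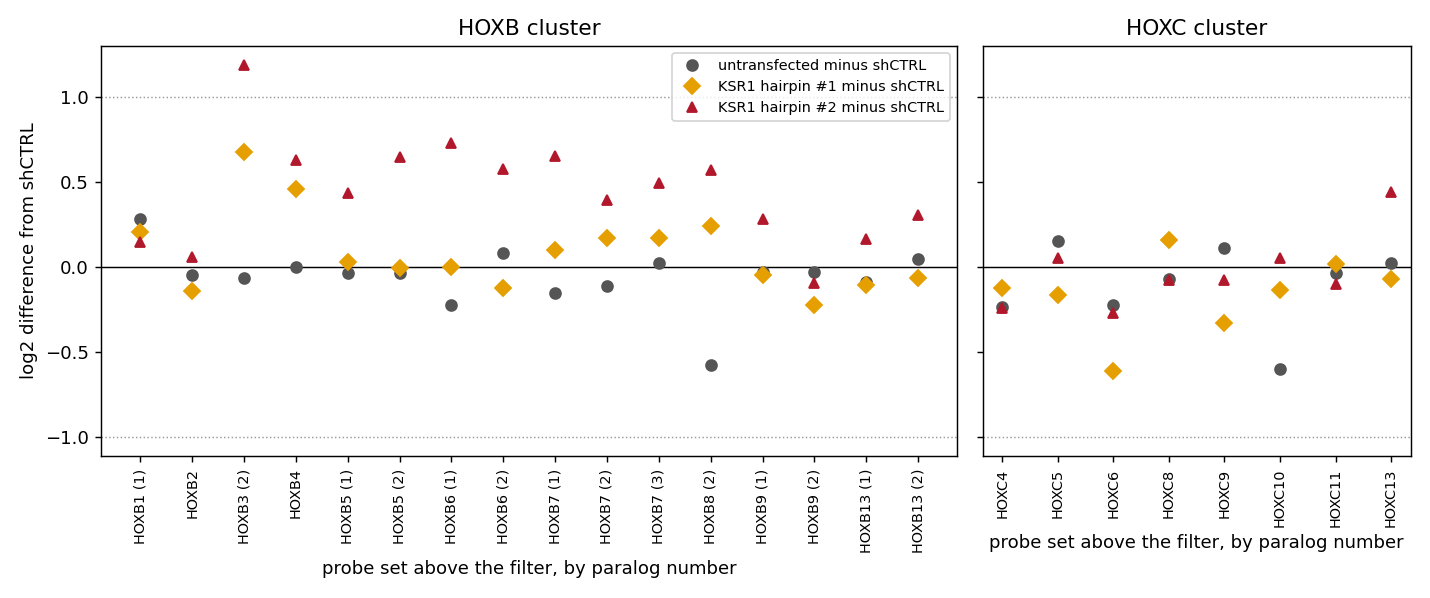
Log2 difference of the untransfected, hairpin #1 and hairpin #2 arrays from the shCTRL array (vertical axis) for the analysed HOXB and HOXC probe sets in order of paralog number. Dotted lines stand at 1 log2 unit, which only HOXB3 with hairpin #2 passed, and the hairpin #2 points of HOXB3 to HOXB8 lie between 0.39 and 1.19.

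Along HOXB the hairpin #2 array was highest for 14 of 16 analysed probe sets, the dimmer HOXB6 probe set among them. The differences of hairpin #2 from shCTRL were largest over a stretch of neighbours. Over HOXB3 to HOXB8, a stretch picked after the values were seen, hairpin #2 was above shCTRL on 10 of 10 analysed probe sets (median 0.60) and above hairpin #1 on 10 of 10 (median 0.46). Without the HOXB6 probe set that reached the filter through hairpin #2, these were 9 of 9, with medians of 0.58 and 0.41. The choice of the stretch fixes these counts. Hairpin #1 was above shCTRL on 8 of the 10 (median 0.13), and its largest differences were those of HOXB3 and HOXB4. Among the 8, the dimmer HOXB6 probe set was at 0.00065 and the brighter of HOXB5 at 0.027. These 10 probe sets stand for 6 genes, and 7 of them have identifiers that mark possible matches to other transcripts, so they are not independent readings. The 6 remaining HOXB probe sets, of HOXB1, HOXB2, HOXB9 and HOXB13, were between -0.10 and 0.31 from shCTRL with hairpin #2.

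In HOXC, hairpin #1 was the lowest array for 4 of 8 analysed probe sets, those of HOXC5, HOXC6, HOXC9 and HOXC13. HOXC6, a gene of the thoracic region, had 509, 597, 386 and 493. The hairpin #1 array was lowest, at 0.61 log2 units below shCTRL, while hairpin #2 was at -0.05 from untransfected cells. HOXC9, which helps set thoracic motor neuron identity, had 254, 233, 182 and 220, and was again lowest with hairpin #1, by 0.33 below shCTRL. The mean differences of the hairpin arrays from the others were -0.33 (SE 0.16) and -0.26 (SE 0.13), with a limma adjusted p = 0.66 for each. For HOXC6 the difference was -0.16 without hairpin #1, -0.50 without hairpin #2 and -0.22 without shCTRL. For HOXC9 it was -0.13 without hairpin #1.

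The other HOXC genes showed no common order of the arrays. HOXC4 had 58.8, 72.04, 64.7 and 58.5 and HOXC5, whose listed start it shares, had 117, 103, 90.5 and 108. Of these HOXC4 was highest in shCTRL and HOXC5 in untransfected cells, and HOXC5 was lowest with hairpin #1. HOXC8 had 68.95, 73.3, 83.8 and 68.6 and HOXC11 had 98.6, 101, 103 and 93.7, and both were highest with hairpin #1. HOXC10, a hindlimb motor neuron gene, had 45.7 in untransfected cells against 77.5, 69.3 and 80.8 in the 3 lines with a vector. It was thus lowest without a vector, and its untransfected value lay under the filter. HOXC13, a gene of hair and nails, had 82.6, 81.0, 76.5 and 116 and was lowest with hairpin #1 and highest with hairpin #2. Of the 8 analysed HOXC probe sets, 6 were below shCTRL with hairpin #1 (median -0.13), where 46.6% of all analysed were. With hairpin #2, 5 were (median -0.08), near the 47.8% of all.

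In HOXD the analysed member was HOXD8, whose promoter window is printed above, with 85.5, 82.2, 87.7 and 109.9. Hairpin #2 was highest, by 0.36 over shCTRL. The digit gene HOXD13 lay between 9.18 and 38.8 over its 3 probe sets and HOXD10 between 12.02 and 21.2 over its 3. HOXD4, HOXD9, HOXD11 and HOXD12 lay between 10.3 and 44.4. HOXD1 had 62.0 in untransfected and 43.3 in shCTRL cells on its brighter probe set. Of these probe sets, the brighter of HOXD1 was above the array median in untransfected and hairpin #1 cells, and the others were below it on every array.

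Set side by side, HOXB had a higher median than HOXC with hairpin #2 against each of the other arrays. Against untransfected cells the HOXB and HOXC medians were 0.48 and -0.03, with 0.03 over all analysed. The HOXC median there was -0.0045 when the arrays were centred on their medians, so its sign carries little. Against hairpin #1 the HOXB and HOXC medians were 0.33 and 0.20, with -0.003 over all analysed. The median difference from shCTRL with hairpin #2 was 0.46 over 16 HOXB and -0.08 over 8 HOXC probe sets, against 0.01 over all 22733 analysed. With hairpin #1 the medians were 0.01 in HOXB and -0.13 in HOXC, against 0.02. By position, the median with hairpin #2 was 0.15 over 3 anterior (paralogs 1 to 3), 0.46 over 14 central (4 to 8) and 0.11 over 8 posterior (9 to 13) probe sets. Within HOXB the central median was 0.58 over 9 probe sets, while within HOXC it was -0.16 over 4. The central position alone thus did not go with higher values in both clusters. The HOXB medians and the median over all central probe sets include the dimmer HOXB6 probe set, which the hairpin #2 array brought over the filter.

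Counts past fixed sizes were small. Past 1 log2 unit from shCTRL was 1 of 25 HOX probe sets with hairpin #2, that of HOXB3, where 1.71% of all analysed probe sets were. With hairpin #1 the count was 0 of 25, with 0.471% of all, and past 0.5 were 2, HOXB3 above and HOXC6 below, with 4.53% of all. Between the hairpins 0 of 25 passed 1 log2 unit, with 1.54% of all. Higher with hairpin #2 by 0.5 or more were 6, the dimmer HOXB6 probe set among them, with 4.1% of all. Between shCTRL and untransfected cells 0 of 25 passed 1 log2 unit, with 0.726% of all. Past 0.5 in that pair were 2, those of HOXB8 and HOXC10, with 5.67% of all. Against untransfected cells hairpin #2 had 2 past 1 log2 unit, HOXB3 and HOXB8, with 2.05% of all, and hairpin #1 had 0, with 0.735%. At 0.5 or more above shCTRL were 7 of 25 with hairpin #2, where 4.89% of all were, and 6 of 24 without the dimmer HOXB6 probe set, which the hairpin #2 array brought over the filter. HOXB6 had 2 of the 7, and HOXB3, HOXB4, HOXB5, HOXB7 and HOXB8 had 1 each.

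Over all HOX genes hairpin #2 was above shCTRL for 19 of 25 probe sets, with 52% of all, and above hairpin #1 for 21, with 49.1% of all. Hairpin #1 was above shCTRL for 12, with 53.2% of all. The hairpin #2 array was the highest of the 4 for 17 of 25 HOX probe sets, 14 of them in HOXB, against 29.3% of all analysed. Hairpin #1 gave the lowest of the 4 values for 10 of 25, 6 in HOXB and 4 in HOXC, against 4511 of all 22733 analysed. The dimmer HOXB6 probe set, which reached the filter only through hairpin #2, is counted in the 19, 21, 17 and 14. Both hairpin arrays lay on 1 side of both others for 12 of 25, with 40.6% of all. They were above for 9, with 23.7% of all, and below for 3, with 16.9%. Of the 9, 8 were in HOXB and the other was HOXD8, and the 3 were HOXC6, HOXC9 and the brighter probe set of HOXB9. That dimmer HOXB6 probe set is counted in the 12, the 9 and the 8 as well. Some gaps were small, at 0.00065 for the dimmer HOXB6 probe set, 0.027 for the brighter of HOXB5 and 0.030 for HOXD8. On these hairpin #1 lay close to a control array. The gaps of HOXC6, HOXC9 and HOXB9 were 0.045, 0.076 and 0.064. The limma comparison of both hairpin arrays with both others passed 0 of 25 HOX and 0 of 22733 probe sets (0% of all) at an adjusted p of 0.05. At an unadjusted p of 0.05 it had 4 HOX probe sets, of HOXB3, HOXB4, HOXB7 and HOXB8, with 7.47% of all. Its p-values rest on 2 residual degrees of freedom and on the spread between unlike arrays of a side.

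**Figure D3:**
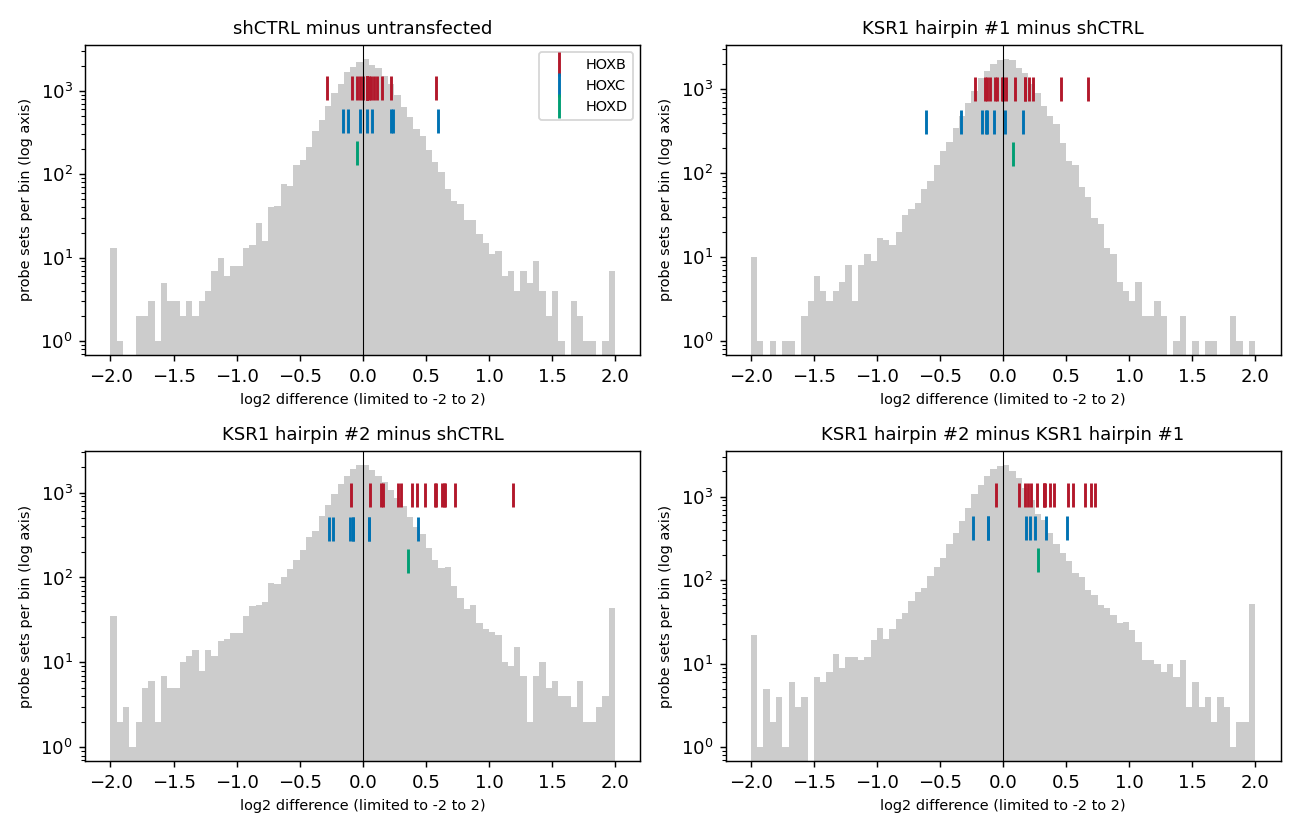
Distribution of log2 differences between pairs of arrays over all 22733 analysed probe sets (grey bars, number per bin on a log axis), with coloured ticks for the HOXB, HOXC and HOXD probe sets at a height of no meaning. In the panel of hairpin #2 minus shCTRL 15 of 16 HOXB ticks lie to the right of 0 and 5 of 8 HOXC ticks to the left. The HOXB ticks include the HOXB6 probe set that reached the filter only through hairpin #2.

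Of 9 analysed epithelial marker probe sets, 8 were higher with hairpin #2 than in shCTRL, where 52% of all analysed probe sets were. The summed intensity of the epithelial list was 37446, 37880, 35333 and 45543, with keratin KRT18 at 13160, 13455, 12123 and 16755. The differentiation keratin KRT20 had 166, 63.7, 52.5 and 275. EPCAM, given above, was at 0.01 from shCTRL with hairpin #2, and the brush border gene VIL1 at -0.05. LGALS4 and GPA33, both under the filter, were at -0.10 and -0.04. The fibroblast list summed to between 1524 and 1690, lowest with hairpin #2. The leukocyte list, all of it under the filter, summed to 309, 302, 270 and 353, with lysozyme LYZ at 20.1, 13.1, 9.03 and 60.0 on its wider-ranging probe set. The part of these shifts in the HOXB values was not tested.

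The partners and regulators of HOX genes were taken from lists, and 0 of their probe sets passed limma. Of the TALE cofactors 7 of 9 genes had an analysed probe set, and 0 of 14 probe sets passed 1 log2 unit between any arrays. In single pairs of arrays 0.471% to 2.05% of all analysed probe sets passed it. MEIS2, a DNA-binding partner, had 468, 695, 442 and 439, and PBX3 had 122, 202, 142 and 194, so both were high in shCTRL, MEIS2 in that array alone. Of the ParaHox and related genes 3 were analysed, among them the intestinal regulator CDX2, also on the epithelial list, with 89.3, 83.4, 79.9 and 131, highest with hairpin #2. CDX1, its intestinal relative, lay between 144 and 159.

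Of 23 analysed Polycomb genes 1 passed 1 log2 unit, PHC2, a subunit of the Polycomb repressive complex that compacts chromatin. Its brightest probe set had 2747, 3053, 2744 and 1664, and the others had 512, 367, 439 and 167, and 222, 253, 305 and 124. On all 3 PHC2 was lowest with hairpin #2, by 0.87 to 1.06 below shCTRL. Past 1 log2 unit from shCTRL with hairpin #2 was 1 of the 59 Polycomb probe sets, with 1.71% of all. Between the hairpins 2 of the 59 were, with 1.54% of all. JARID2, an accessory subunit of the methylating complex, had 1182, 862, 648 and 777 on the brighter of its analysed probe sets, highest in untransfected cells. Over the 59 Polycomb probe sets the median of the hairpin arrays against the others was -0.07, against 0.03 over all analysed. Both hairpin arrays were above both others for 9 of the 59 and below for 16, with 23.7% and 16.9% of all. The trithorax and demethylase list had a median of -0.01 over 42 probe sets, with 6 above and 4 below (23.7% and 16.9% of all). Past 1 log2 unit between any arrays were 0, with 0.471% to 2.05% of all in single pairs. The widest range of that list was that of the demethylase KDM6A, at 231, 134, 168 and 163.

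Among 10 analysed retinoic acid genes 1 passed 1 log2 unit, RDH10, which makes retinaldehyde, the precursor of retinoic acid. RDH10 had 611, 356, 549 and 1219 on its brightest probe set, 222, 180, 196 and 443 on the next and 102, 86.5, 107 and 162 on the third. Hairpin #2 was highest and shCTRL lowest on all 3, by 1.73, 1.23 and 0.80 log2 units. Past 1 log2 unit from shCTRL with hairpin #2 were 2 of the 18 probe sets of the list, with 1.71% of all. Between the hairpins 2 of the 18 were, with 1.54% of all. The synthesizing enzyme ALDH1A3 had 2294, 3776, 3760 and 4348, lowest in untransfected cells. The receptor RXRA had 432, 501, 517 and 716 on its brighter probe set, highest with hairpin #2, and 147, 137, 114 and 135 on the other, highest in untransfected cells. CRABP2, which carries retinoic acid in the cell, had 2800, 3922, 4233 and 2984. The list median of the hairpin arrays against the others was 0.03 over 18 probe sets, with 3 above and 7 below both others (23.7% and 16.9% of all).

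Among noncoding transcripts of the clusters and flanking genes, 6 of 23 listed genes had an analysed probe set. Over their 10 probe sets the median with hairpin #2 was 0.27 above shCTRL, against 0.01 over all analysed. Both hairpin arrays were above both others for 3 and below for 1, with 23.7% and 16.9% of all. Of the 10, 5 were of the flanking gene SKAP2. The 3 were of SKAP2 and MTX2, and the 1 was of SKAP2. The analysed noncoding transcripts HOXB-AS1, HOXD-AS2 and HOTTIP were at 0.25, 0.11 and -0.04 from shCTRL with hairpin #2. HOXB-AS3, which runs antisense through the middle of HOXB, the HOXC transcript HOTAIR and PRAC1, a neighbour of HOXB13, had intensities between 6.89 and 46.2 on all their probe sets. HOXB-AS1, antisense near HOXB2 and HOXB3, had 83.0, 48.8, 56.5 and 61.2 on its brighter probe set and did not share the order of HOXB3. SKAP1, an adaptor gene beside the HOXB1 end of HOXB, had 116, 128, 119 and 53.4, lowest with hairpin #2, by 1.05 log2 units from shCTRL and 0.93 from untransfected cells. SKAP2, beside HOXA, had 607, 410, 555 and 762 on its brightest probe set and was highest with hairpin #2 on 4 of 5 analysed probe sets, and MTX2, beside HOXD, had 1493, 1318, 1504 and 1609, with both hairpin arrays above both others.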

How the data were processed

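Total RNA of 4 HCT116 samples was labelled with a 1-cycle biotin kit and hybridised to Affymetrix arrays, per the labels. The deposited values are intensity values on a linear scale, 1 per probe set and array, summarised by the authors; which background correction, summary and normalization was used was not given in the sources used here. No further scaling was applied. Symbols came from the platform annotation: 41097 probe sets had 1 symbol, 1801 several and 11777 none. All 44 HOX probe sets matched a RefSeq gene identifier.

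Values became log2(intensity + 16). Probe sets with 1 symbol and a mean at or above 6.08 were analysed (22733). Pairs of arrays were compared by size (1 log2 unit), and both hairpin arrays with both others by limma 3.58.1 in R 4.3.3 (lmFit, eBayes, Benjamini-Hochberg). The limma step was also run on simulated data, with the same spread for all probe sets and changes larger than any HOX difference here. That run thus does not show how it handles differences of this size on these arrays. The number of arrays limits the precision, and p-values measure spread between unlike arrays.

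Named with all values were HOX genes past 1 log2 unit in any of 6 pairs, with a gap of 0.5, or with the 3 highest or 3 lowest mean differences, every other analysed HOX gene, and up to 4 genes per list by widest range; others were chosen after their values were seen. Members and lists were chosen with earlier results of these data known. Probe sets with several symbols (3 for HOXD3 and HOXD4) were left out. Identifiers ending in _s_at, _x_at or _a_at (10 of 25 analysed) mark possible matches to other transcripts. Alternatives covered the filter, unit, pseudocount, normalization, size rule and each array left out.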

Additional observations from a re-analysis of the deposited data

How the results depend on the processing

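The 6 HOX gene differences listed by rule (HOXB3, HOXB4, HOXB8, HOXB9, HOXC6, HOXC9) kept their sign in 74 of 74 alternative values. The genes were listed for extreme differences on these same arrays, so that count was largely fixed in advance. Each was followed on its brightest probe set, or on the mean where probe sets were averaged. The other HOXB9 probe set was at 0.13 in the main run. HOXB3 ranged from 0.51 to 1.22, HOXB4 from 0.46 to 0.63 and HOXB8 from 0.39 to 0.98. HOXB9 ranged from -0.21 to -0.0045, HOXC6 from -0.50 to -0.16 and HOXC9 from -0.39 to -0.13. Under the 9 processing alternatives there were 0 HOX limma calls. All HOXB3 to HOXB8 probe sets stayed higher with hairpin #2 than in shCTRL under 9 processing alternatives, a count added after seeing the data. The stretch was picked on these same arrays, so this count too was largely fixed in advance. In the main run it was 9 of 9 without the HOXB6 probe set that reached the filter through hairpin #2. The number of HOX probe sets with hairpin arrays on 1 side of both others was 20 of 44 without a filter and 6 of 15 without identifiers that may match other transcripts. Leaving out arrays gave 14 to 23, since fewer arrays separate more easily, and a median HOX difference between 0.037 without hairpin #2 and 0.33 without hairpin #1, against 0.17. That median was 0.32 with the stricter filter (9 probe sets left) and 0.039 without a filter (44 probe sets). It was 0.074 without identifiers that may match other transcripts and 0.098 with the brightest probe set per gene. Under the other processing alternatives it lay between 0.12 and 0.20. When a gene's probe sets were averaged, 0 HOX genes passed 1 log2 unit with hairpin #2 against shCTRL. With 0.5 log2 units in place of 1, HOX counts were 2 for shCTRL against untransfected cells, 2 and 7 for hairpins #1 and #2 against shCTRL and 6 between hairpins. The causes were not tested. No paired analysis was possible because each group holds 1 array. No detection calls were used, so dim HOX probe sets give no order of the arrays.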
